A study of Mus musculus with 18 samples.

Results

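The untreated septic intestine was compared with the untreated septic liver and lung of the same experiment. The 9 libraries without hydrogen treatment were used of 18 in all, 3 each from intestine, liver and lung, and they were chosen by their sample titles. They came from C57BL/6 male mice aged 9 weeks, 24 h after cecal ligation and puncture, an operation in which the cecum is tied off and pierced so that gut bacteria leak into the abdomen. Hydrogen was 0% in all 9 libraries. The labels give neither the stretch of intestine that was taken nor which organs came from the same mouse, and nothing in them states that the 3 libraries of an organ are separate animals. The p values therefore measure the spread between these libraries, which may be technical. All 3 organs are from operated mice and sham-operated mice were not analysed here, so a difference that comes with sepsis and one that is present in the healthy organ cannot be told apart.

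The small intestine is lined by a single layer of epithelium that renews itself from stem cells in the crypts. Enterocytes digest and absorb food at their brush border, goblet cells secrete mucus, enteroendocrine cells release peptide hormones, and Paneth cells at the crypt base secrete antimicrobial proteins. The same epithelium senses bacteria through cytosolic receptors and answers interleukin 22, a cytokine of lymphocytes, with antimicrobial proteins of the Reg3 family. The liver answers infection in another way, by secreting acute-phase proteins into the blood.

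Expression was given as FPKM, which counts sequenced fragments relative to the length of the transcript and to the depth of its library, so levels of different genes are per length. The summed FPKM was between 712858 and 739194 in intestine, between 786126 and 827208 in liver and between 824667 and 839264 in lung, and the 20 highest genes held 34.5 to 37.8%, 51.9 to 55.3% and 33.6 to 35.7% of it. The spacing of the lowest FPKM of genes with 1 transcript corresponded to between 10200000 and 12550000 mapped fragments per library, at which 1 fragment on 1 kb of transcript is 0.0797 to 0.098 FPKM. Intestine values were deposited with 6 significant digits and those of the other organs with 3 decimals, and whether the 3 organs were processed together is not given in the sources used here. A difference in processing and the organ cannot be told apart.

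A gene was called where limma's test on log2(FPKM + 1) gave an adjusted p (Benjamini-Hochberg over all tested genes) under 0.05 and the same direction against the liver, against the lung and against the mean of both. Of 13238 tested genes with a mean of at least 1 FPKM, 1860 were higher in the intestine than in each other organ (14.1%) and 902 were lower (6.81%). The counts of calls in each gene list below are to be read beside these shares. Against a single organ, 57.4% of genes were above and 11.5% below the liver, and 16.6% were above and 48.7% below the lung. In 2944 genes the intestine lay above the liver and below the lung (22.2%), and in 128 genes it lay below the liver and above the lung (0.967%). The median difference of all tested genes was 0.65 from the liver and -0.45 from the lung on this log2 scale. After median-of-ratios scaling those medians were 0.03 and 0.01, so moderate differences depend on the scaling. Calls of the same direction under that scaling, under quantile normalization and under scaling to TPM numbered 1477 higher (11.2%) and 534 lower (4.03%). Higher genes were 67.3% of the calls as deposited, 61.0% after median-of-ratios scaling, 56.4% after quantile normalization and 74.7% after scaling to TPM. In bulk tissue, fewer cells of a type and less RNA per cell cannot be told apart.

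**Figure D1:**
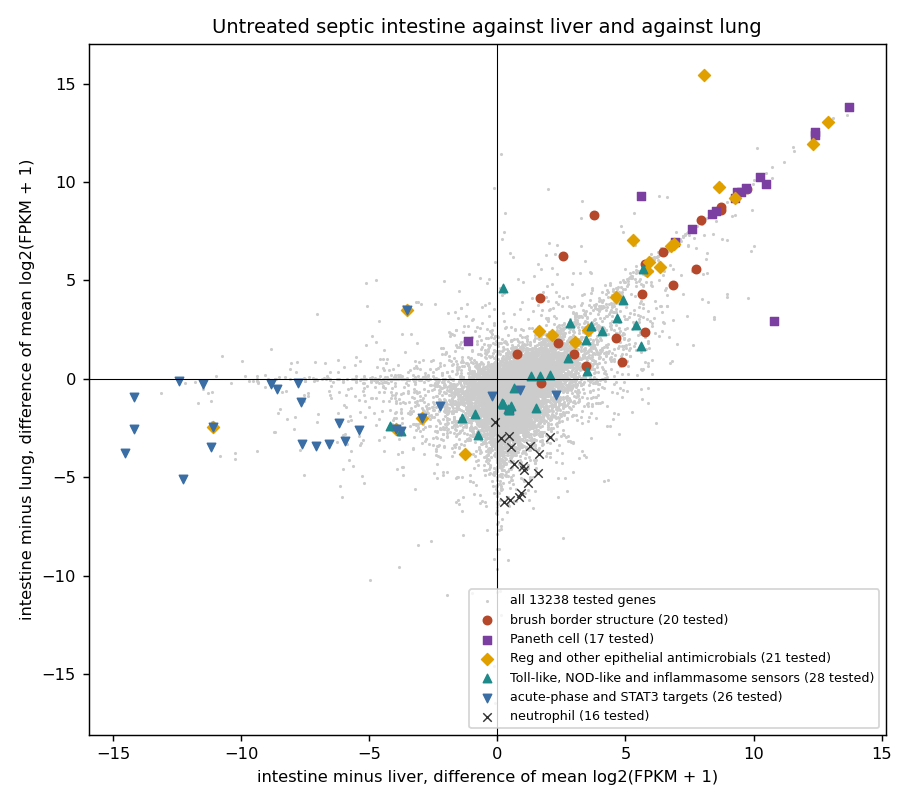
Difference of the intestine from the liver (horizontal) and from the lung (vertical), each as a difference of mean log2(FPKM + 1) over 3 libraries, for all 13238 tested genes (grey) and 6 gene lists (coloured). Paneth cell, brush border and most antimicrobial genes lie in the upper right, acute-phase genes lie to the left, and neutrophil genes lie below the horizontal line near the liver's level.

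The libraries carried the markers of intestinal epithelium. Among the 14 epithelial identity genes, all of them tested, 14 were called higher and each call held under the 3 other scalings. The marker lists were checked because the labels name the tissue and nothing more. Vil1, the villin that bundles the actin of microvilli, was at 614, 332 and 453 FPKM in the 3 intestine libraries, at 0.179, 0 and 0.056 in liver and at 0.18, 0.072 and 0.281 in lung. Its intestine values were all far above the others, with a difference of 8.72 ± 0.21 (SE) from the liver and 8.59 ± 0.21 (SE) from the lung (adjusted p = 2.5e-09). Cdx1 and Cdx2, the homeobox factors that set intestinal identity, were at 73.5, 103 and 74.3 FPKM and at 76.5, 62.3 and 64.8 FPKM and were listed at 0 in every liver and lung library. Vil1, Cdx1 and Cdx2 passed the filter only through their intestine values. Their calls, the adjusted p and the share of this list that was called are therefore descriptions. Krt8, a keratin shared with hepatocytes and other epithelia, differed least, at 2124, 1028 and 1377 FPKM against 286, 123 and 181 in liver and 133, 139 and 133 in lung (2.95 ± 0.32 (SE) and 3.41 ± 0.32 (SE)).

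Transcription factors of the epithelium followed the same direction. Of 25 tested, 16 were called higher and 1, Gata4, lower. Hnf4g, a nuclear receptor of enterocytes, was at 45.2, 46.5 and 36.9 FPKM against 0.094, 0.096 and 0.102 in liver and 0, 0.035 and 0.019 in lung. Isx, a homeobox factor that controls vitamin A uptake, was at 138, 113 and 100.3 FPKM, and Atoh1, the factor of secretory cells, was at 7.73, 8.88 and 7.54 FPKM, both listed at 0 in the other organs. Hnf4g, Isx and Atoh1 passed the filter only through their intestine values, so their calls are descriptions.

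Of 6 markers of the ileum, the last part of the small intestine, 5 were tested and all 5 were called higher. Fabp6, the ileal bile acid binding protein, was at 1653, 1548 and 1112 FPKM and was listed at 0 in all 6 other libraries. Slc10a2, the transporter that takes bile acids up from the ileal lumen, was at 268, 190.4 and 208 FPKM against 4.2, 14.3 and 4.91 in liver and 0 in lung. Slc51a and Slc51b, which form the bile acid exporter of the basolateral membrane, were at 392, 273 and 309.6 FPKM and at 1657, 849 and 1465 FPKM, respectively. Osr2, a transcription factor of the list, was at 23.4, 26.4 and 22.4 FPKM. The 5 calls held under every other scaling. Of the 5, all but Slc10a2 passed the filter only through their intestine values, so these calls are descriptions. A call against liver and lung does not tell regions of the gut apart. Fgf15, the hormone that the ileum releases when bile acids arrive, was below the filter at 1.2, 0.939 and 1.68 FPKM. Nr0b2, a repressor that bile acids induce through the receptor Nr1h4, was at 0.0919, 0 and 0.0951 FPKM although Nr1h4 itself was at 183, 119.9 and 170.2 FPKM.

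Markers of the proximal small intestine, the duodenum and jejunum, were mixed. Of 9 symbols, 6 were tested, 2 called higher and 1 lower. Lct, the lactase of the proximal brush border, was at 0, 0.0229 and 0.0145 FPKM, Pdx1, a duodenal transcription factor, was at 0, 0 and 0.0802 FPKM, and Onecut2, another, was at 0.0254, 0.00518 and 0.00656 FPKM. Cybrd1, the iron reductase of the duodenum, was at 0.502, 0.805 and 0.744 FPKM, and Gata4, the factor that sets proximal identity, was at 0.184, 0.171 and 0.136 FPKM. These 5 were under 1 FPKM in every intestine library. Gata4 was called lower than both organs (adjusted p = 0.011). That call was lost under median-of-ratios scaling, under quantile normalization and with a pseudocount of 5. Gata4 could not be tested without liver library 2, when its mean fell below the filter. The other 4 were present, and the pair called higher were Slc5a1 and Apoa4. Slc5a1, the glucose transporter of enterocytes, was at 488, 230.0 and 418 FPKM, and Apoa4, an apolipoprotein of chylomicrons, was at 1764, 375 and 738 FPKM, its call lost under median-of-ratios scaling. Fabp1, a fatty acid binding protein shared with the liver, was at 300.2, 982 and 229.9 FPKM, and S100g, a calcium carrier of enterocytes, was at 9.23, 3.76 and 3.5 FPKM. Tmprss15, the enteropeptidase of the duodenum and a member of the enzyme list, was at 0 in all 3 libraries. Of 9 colon and cecum symbols, 5 were tested and 2 called higher. Among these was Aqp4, a water channel, at 21.3, 12.3 and 16.4 FPKM against 0.245, 0.888 and 0.272 in liver and 7.17, 6.33 and 5.54 in lung. Hoxb13 and Hoxa13, homeobox genes of the hindgut, were at 0 in all 3 libraries, and Car1, a carbonic anhydrase of colonocytes, was at 10.6, 0.349 and 0 FPKM, with only library 1 above 1 FPKM.

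**Figure D2:**
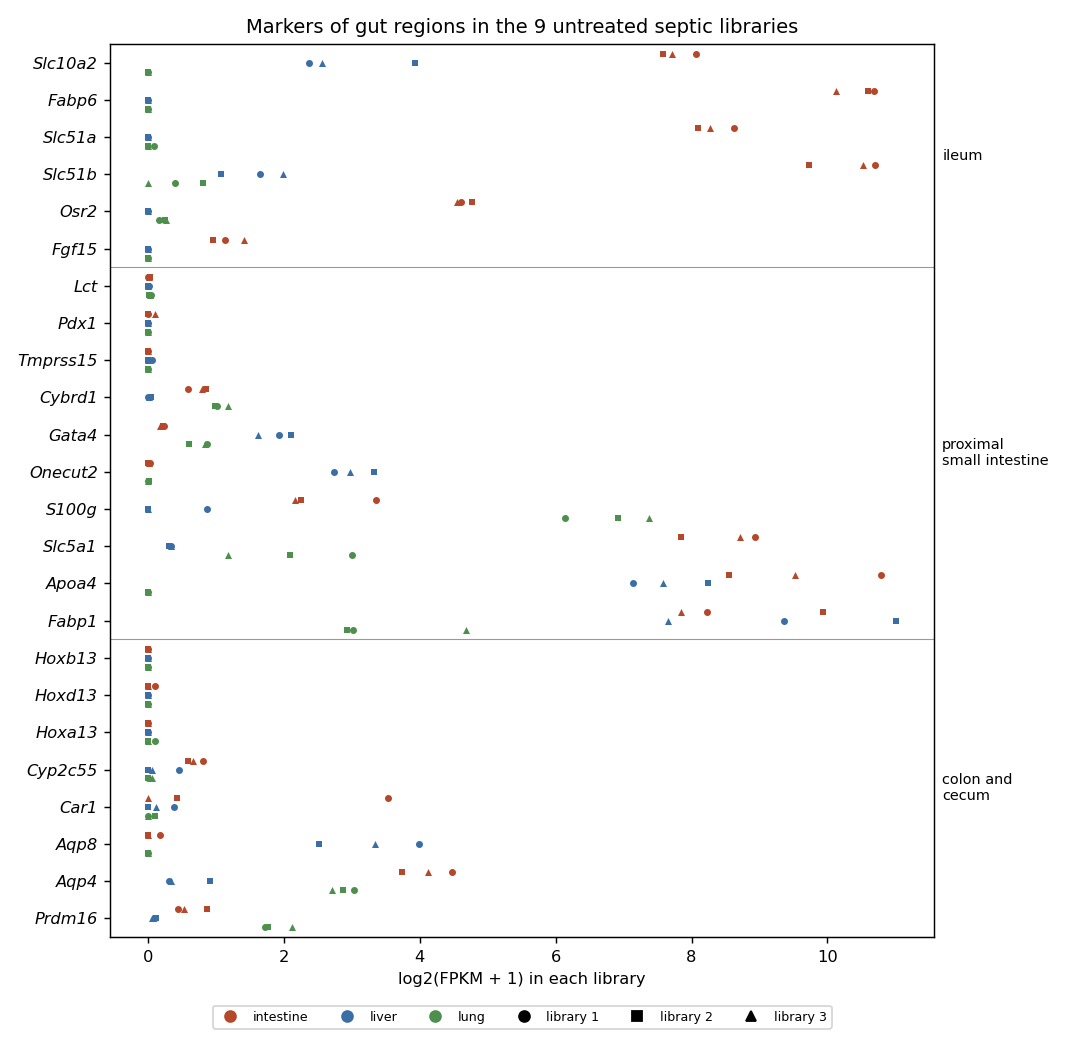
Log2(FPKM + 1) of region markers in each of the 9 libraries (colour: organ; symbol: library number). Ileal genes other than Fgf15 are high in all 3 intestine libraries, while Lct, Pdx1, Tmprss15 and the Hox genes lie at or near 0 in them.

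Antimicrobial proteins were the most abundant transcripts of the septic intestine. Of 21 tested genes in the list of Reg proteins and other epithelial antimicrobials, 16 were called higher and 3 lower, and the median difference was 5.30 from the liver and 5.47 from the lung (3.56 and 3.83 without the members listed at 0 in that organ), beside 0.65 and -0.45 over all tested genes. Reg3b, a lectin that binds bacteria, was at 89213, 92036 and 93299 FPKM in the intestine. The liver held 473, 458 and 177 FPKM and the lung 4.59, 0.632 and 0 FPKM, so the intestine was higher by 8.08 ± 0.59 (SE) and 15.42 ± 0.59 (SE) (adjusted p = 2.7e-06). Reg3g, its close relative that keeps bacteria away from the epithelium, was at 48142, 58003 and 51385 FPKM against 723, 294 and 519.8 in liver and 520.0, 490.0 and 451 in lung. Both genes were thus above 0 in other organs, Reg3g at a similar level in liver and lung. Lypd8, a protein that keeps flagellated bacteria off the epithelium, was at 9113, 8662 and 9154 FPKM and under 1 FPKM in each other library. Dmbt1, a mucosal scavenger that clumps bacteria, was at 1812, 1299 and 1033 FPKM, and in the liver it was at 37.2, 0 and 0 FPKM, with library 1 alone above 0. Reg4, another lectin of the family, was at 94.4, 40.2 and 54.8 FPKM and listed at 0 elsewhere.

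The 3 lower members were proteins that the liver also secretes in the acute phase. Lcn2, the lipocalin that withholds bacterial iron carriers, was at 1737, 664 and 1196 FPKM, below the liver at 19234, 14973 and 18229.9 and the lung at 12732, 5218 and 4257 (differences of -3.96 ± 0.43 (SE) and -2.56 ± 0.43 (SE), adjusted p = 0.00067). Saa2 and Saa3, serum amyloid proteins, were lower as well, Saa3 at 3522, 2979 and 3031 FPKM against 18917, 32720.4 and 24259 in liver and 22839, 8211 and 10283 in lung. Saa1, which is made by gut epithelium as well as liver, lay between the organs at 5254, 6970.3 and 6044 FPKM, against 62038, 80075 and 70988 in liver and 1125, 388 and 339.6 in lung. The near-identical sequences of Saa1 and Saa2 share reads, so their split is uncertain.

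Paneth cell products followed. Of 20 Paneth symbols in the files, 17 passed the filter and 15 were called higher, with a median difference of 9.37 from the liver and 9.28 from the lung (10.48 and 9.17 without members listed at 0 in that organ). Genes with little expression outside the intestine, such as Vil1, enter the test only through their intestine level. Their calls and adjusted p values, and the shares of this list and of other lists holding such genes, are therefore descriptions. Defa24, an alpha-defensin, was at 11109.9, 19561 and 20842 FPKM, and Defa6, another, at 18764, 17459 and 17328 FPKM, both at most 2.17 FPKM in any other library. Lyz1, the Paneth lysozyme, was at 3867, 5741 and 5709.6 FPKM against 2.47, 1.44 and 1.54 in liver and 577, 610.0 and 829 in lung. Mmp7, the protease that activates the defensins, was at 505, 672 and 704 FPKM, against 20.6, 7.88 and 10.2 in liver and 0 in lung. Itln1, a lectin for bacterial sugars, was at 1371, 1579.5 and 1442 FPKM, and Ang4, a bactericidal ribonuclease, was at 521, 682 and 693 FPKM. Defa20 and Defa23 were listed at 0 in every library. The defensin genes are near-identical copies on chromosome 8 (Defa24 lies at chr8:21734494-21735471 and Defa21 at chr8:21025545-21026516 in mm10, GENCODE vM21), so the split of reads among them is uncertain.

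Promoters of abundant intestinal genes are shown because Cdx factors are known to bind AT-rich sites of the form TTTATNG. Whether Cdx factors act on these genes was not tested. Each window runs from 250 bases before to 50 after the start of the gene (RefSeq, GRCm38.p6), written 5′ to 3′ on the gene's strand. Capitals mark TTTATNG on either strand and TATAAA, the usual core of a TATA box, on the gene's strand. The windows are Reg3b (chr6:78370635-78370934, plus strand), Reg3g (chr6:78468825-78469124, minus strand), Defa21 (chr8:21025295-21025594, plus strand), Sis (chr3:72967814-72968113, minus strand) and Slc10a2 (chr8:5105238-5105537, minus strand).
Reg3b: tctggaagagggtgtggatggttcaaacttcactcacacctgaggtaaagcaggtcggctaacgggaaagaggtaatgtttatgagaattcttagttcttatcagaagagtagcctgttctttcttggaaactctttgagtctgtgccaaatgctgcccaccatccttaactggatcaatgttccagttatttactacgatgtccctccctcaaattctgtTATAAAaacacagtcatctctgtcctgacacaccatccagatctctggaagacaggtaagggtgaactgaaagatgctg
Reg3g: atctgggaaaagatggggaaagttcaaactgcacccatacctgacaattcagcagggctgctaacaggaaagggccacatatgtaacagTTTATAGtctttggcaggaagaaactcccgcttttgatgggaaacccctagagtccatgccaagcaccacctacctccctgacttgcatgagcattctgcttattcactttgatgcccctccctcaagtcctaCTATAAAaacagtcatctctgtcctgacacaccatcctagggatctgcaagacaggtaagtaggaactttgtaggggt
Defa21: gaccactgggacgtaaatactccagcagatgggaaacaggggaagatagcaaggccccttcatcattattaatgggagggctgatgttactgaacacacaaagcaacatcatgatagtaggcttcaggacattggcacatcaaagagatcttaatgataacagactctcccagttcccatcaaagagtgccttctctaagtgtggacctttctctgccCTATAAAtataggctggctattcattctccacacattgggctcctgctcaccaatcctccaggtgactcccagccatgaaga
Sis: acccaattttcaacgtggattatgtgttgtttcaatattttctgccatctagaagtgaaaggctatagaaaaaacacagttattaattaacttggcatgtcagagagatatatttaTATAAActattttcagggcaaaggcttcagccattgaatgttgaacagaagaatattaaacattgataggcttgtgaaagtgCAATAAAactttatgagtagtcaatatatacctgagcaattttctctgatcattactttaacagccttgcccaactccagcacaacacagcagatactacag
Slc10a2: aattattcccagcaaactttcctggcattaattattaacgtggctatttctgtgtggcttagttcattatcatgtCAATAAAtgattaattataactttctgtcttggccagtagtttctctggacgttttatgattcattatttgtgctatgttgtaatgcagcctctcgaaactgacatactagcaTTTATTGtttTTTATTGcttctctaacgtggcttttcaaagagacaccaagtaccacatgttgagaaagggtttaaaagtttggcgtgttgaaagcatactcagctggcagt
Slc10a2 held 3 TTTATNG matches, Reg3g 2, Defa21 and Sis 1 each and Reg3b 0. Some other windows that were searched, among them those of Fabp6, Vil1, Guca2a and Slc51b, held 0, while those of Defa22, Itln1, Krt20 and Mptx2 held 1 each. The windows shown therefore do not give the share of genes with a match. Of the genes shown, Defa21 alone is among the 30 described below. In Reg3g and Defa21, 1 match each overlapped TATAAA. The Reg3b and Reg3g windows share an unbroken run of 29 bases that starts at base 231 of both. Of the 30 called genes with the largest margin over both organs, 17 had a window in the table. Counting the first listed window of each gene, 6 of the 17 held TTTATNG (35.3%), against 3052 of 27025 windows of all genes (11.3%). The windows of Defa21 and Defa22, both among the 6, are letter for letter the same, so the 6 are not all separate sequences. Without matches that overlap TATAAA the counts were 3 of 17 (17.6%) and 2534 of 27025 (9.38%). CAAAGTCCA, an HNF4-type sequence, was on either strand in 0 of these 17 first windows and in 129 of 27025 (0.477%). A second window of Muc13, a mucin of the cell surface, held 1 match. A match is a description of the letters and not of binding.

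Mucus genes of goblet cells were high. Of 20 tested goblet genes, 14 were called higher and 1 lower, with a median difference of 5.25 from the liver and 4.42 from the lung (4.60 and 4.42 without members listed at 0 in that organ). Zg16, a mucus lectin that aggregates Gram-positive bacteria, was at 7026, 4246 and 5211 FPKM and below 1 FPKM in every other library. Muc2, the gel-forming mucin of the gut, was at 279, 146 and 135 FPKM. Library 1 held about as much of it as the other 2 intestine libraries together. Tff3, a trefoil peptide of epithelial repair, was at 3764, 3496 and 3936 FPKM, Spink4, a goblet cell protease inhibitor, at 2428, 3276 and 2869.9 FPKM, and Clca1, a protease that processes mucus, at 729, 587 and 612 FPKM. Zg16 and Spink4 passed the filter only through their intestine values, so the calls of such genes and the count of the list are descriptions. The member called lower was Foxa2, a factor of endodermal epithelia, at 1.08, 1.58 and 1.38 FPKM against 5.24, 9.24 and 4.39 in liver and 13.3, 13 and 20.3 in lung.

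Brush border genes were mostly called higher. Of 20 structural genes, 17 were called higher, and of 16 tested digestive enzymes, 13, with none lower in either list. Of all tested genes, 14.1% were called higher and 6.81% lower. The median differences were 5.27 and 4.56 for the structural genes and 5.65 and 5.04 for the enzymes, from liver and lung in that order (4.88 and 4.21, and 5.64 and 4.50, without members listed at 0 in that organ). Myo1a, the myosin that ties the actin core to the membrane, was at 561, 333 and 474 FPKM, and Cdhr2, a protocadherin that links microvillus tips, at 346, 196 and 281 FPKM. Sis, the sucrase-isomaltase, was at 304, 159 and 405 FPKM and at most 0.026 FPKM elsewhere. Alpi, the alkaline phosphatase that detoxifies lipopolysaccharide, was at 97.1, 21.4 and 57.2 FPKM and listed at 0 in the other organs. Library 2 was the lowest of the 3 for each of these 4 genes. Myo1a, Sis and Alpi passed the filter only through their intestine values, so the calls of such genes and the counts above are descriptions.

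Absorption genes showed the same direction with exceptions. Of 20 tested transporters of sugars, amino acids and peptides, 12 were called higher and 1 lower. Slc6a19, the neutral amino acid transporter, was at 233, 68.8 and 189 FPKM, Slc15a1, the peptide transporter, at 74.3, 28.6 and 60.3 FPKM, and Slc2a5, the fructose transporter, at 34.3, 9.47 and 54.4 FPKM. The 1 called lower was Slc23a1, a vitamin C transporter, at 0.239, 0.146 and 0.494 FPKM against 10.1, 15 and 12.9 in liver and 2.49, 3.65 and 3.71 in lung. Of 26 ion, bicarbonate and water transport genes, 15 were called higher. Guca2a and Guca2b, the guanylin hormones that drive fluid secretion, were at 1319, 964 and 1036 FPKM and at 718, 806 and 902 FPKM, respectively, and their receptor Gucy2c was at 131, 101 and 117 FPKM against 1.8, 1.88 and 1.74 in the liver. Slc26a3 and Slc9a3, the chloride and sodium exchangers of salt absorption, were at 40.9, 37.3 and 34.2 FPKM and at 100.3, 59.2 and 58 FPKM, respectively.

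Lipid uptake was split between intestine-rich genes and genes shared with the liver. Of 26 genes, 14 were called higher and 4 lower. Npc1l1, the cholesterol importer, was at 137, 52.5 and 110.3 FPKM and Mogat2, which rebuilds triglyceride from absorbed monoglyceride, at 80.3, 78.8 and 71 FPKM, both under 0.1 FPKM elsewhere. The 4 lower genes were Scarb1, a lipoprotein receptor, at 4.32, 3.05 and 2.73 FPKM, Cd36, a fatty acid receptor, at 10.4, 15.4 and 10.03 FPKM, Plin2, which coats lipid droplets, and Abca1, a cholesterol exporter, the last of them lost under median-of-ratios scaling and quantile normalization. Scarb1 was at 37.8, 47.9 and 39.8 FPKM in liver and 46.5, 78.5 and 35.8 in lung. For iron, Heph, the oxidase that helps iron leave enterocytes, was at 78.5, 58.1 and 76.2 FPKM, and Slc40a1, the iron exporter ferroportin, at 22.8, 44.4 and 30.1 FPKM against 8.11, 10.3 and 11.4 in liver and 3.96, 3.77 and 4.77 in lung (adjusted p = 0.00027). Hamp, the hepcidin that degrades ferroportin, was at 3.15, 2.57 and 1.86 FPKM against 4536, 8225 and 6804 in liver and 71.7, 83.8 and 23.9 in lung. In the iron, mineral and vitamin list 7 of 16 tested genes were called higher and 3 lower.

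Hormone genes, neuronal genes and cell cycle genes were detected. All 14 tested enteroendocrine genes were called higher, and another 11 of the list's 25 were below the filter. The whole list summed to 473 to 727 FPKM in intestine, 0.066 to 1.31 in liver and 4.86 to 6.99 in lung. Its tested members passed the filter mostly through their intestine values, so this count is a description, beside 14.1% of all tested genes. Pyy, a satiety hormone of the distal gut, was at 119, 52.5 and 77.4 FPKM, Gcg, the precursor of GLP-1, at 60.4, 75.6 and 53.4 FPKM, Nts, the ileal neurotensin, at 70.6, 50.4 and 67 FPKM, and Cck, the hormone of gallbladder contraction, at 170.2, 29.95 and 193 FPKM, with library 2 far below the others. Vip, a peptide of enteric neurons, was at 17.5, 24.9 and 35.8 FPKM and at most 0.066 FPKM elsewhere. Of 25 tested cell cycle genes, 19 were called higher and 0 lower, each held under the other scalings, and the median difference was 2.95 from the liver and 1.10 from the lung. Mki67, a marker of dividing cells, was at 14.9, 16.9 and 16 FPKM against 0.242, 0.115 and 0.279 in liver and 5.73, 5.5 and 3.23 in lung. The 6 not called were Pcna and the Mcm3, Mcm4, Mcm5, Mcm6 and Mcm7 helicase subunits, which load at replication origins, and they differed from the lung by -0.39 to 0.53. Mcm5, Mcm6 and Mcm7 were called higher under quantile normalization and under median-of-ratios scaling. Which cells the cell cycle transcripts came from was not tested. Olfm4, a crypt stem cell marker, was at 35.7, 49.4 and 28.1 FPKM and Lgr5, the defining stem cell receptor, was below the filter at 1.17, 2.18 and 1.9 FPKM. Of 20 neuron, glia and pacemaker symbols, 10 were tested and 5 called higher (3 without intestine library 2). Of 16 tested stem cell genes, 6 were called higher. Of 17 tuft cell symbols, 8 were tested and 2 were called higher (1 without intestine library 1 or 2, and 0 without library 3), and Dclk1, the usual tuft cell marker, was at 1.57, 1.93 and 1.61 FPKM. Of 28 junction genes, 15 were called higher and 2 lower (1 lower without intestine library 2 or 3 or liver library 1 or 3). Cldn7, a claudin of gut epithelium and one of the higher genes, was at 973, 655 and 768 FPKM. Cldn1, a claudin of the tight junction called lower, was at 0.386, 0.157 and 0.143 FPKM against 5.97, 15.1 and 9.05 in liver and 8.8, 5.05 and 4.38 in lung. Of 18 tested genes of epithelial repair, 4 were called higher and 1 lower (22.2% and 5.56%, beside 14.1% and 6.81% of all tested genes). Their median difference was 2.14 from the liver and -1.61 from the lung. Ereg and Areg, growth factors that act on the EGF receptor, were among the 4, at 28.5, 10.3 and 21.4 FPKM and at 65.6, 12.7 and 21.9 FPKM, respectively.

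Sensor and inflammasome genes were called in both directions. Of 28 tested, 10 were called higher, 4 lower and 14 neither, and the calls all held under the other scalings. The shares were 35.7% higher and 14.3% lower, beside 14.1% and 6.81% of all tested genes. Naip1, a receptor for bacterial secretion needles, was at 65.5, 42.7 and 56.4 FPKM against 0.101, 0.074 and 0.063 in liver and 0.237, 0.189 and 0.058 in lung. Nlrc4, the adaptor it activates, was at 29.9, 30.5 and 35.4 FPKM against 0.082, 0.084 and 0.089 in liver and 1.44, 0.863 and 0.838 in lung (4.92 ± 0.14 (SE) and 4.02 ± 0.14 (SE), adjusted p = 3.2e-08). Nlrp9b, an epithelial sensor of viral RNA, was at 7.49, 6.85 and 4.39 FPKM and at most 0.022 FPKM in any other library. Naip1, Nlrc4 and Nlrp9b passed the filter only through their intestine values, so their calls and the adjusted p are descriptions. Downstream, Casp1, the inflammasome protease, was at 74, 114 and 102 FPKM against 0.914, 2.04 and 0.996 in liver and 14.3, 13.2 and 12.9 in lung. Its substrates Gsdmd, which forms membrane pores, and Il18, a cytokine of epithelium, were at 303, 264 and 222 FPKM and at 129, 104 and 97.9 FPKM, respectively. None of the intestine values of these 6 genes overlapped another organ. They were named because they were called, so this is a description. The Naip genes are close copies on chromosome 13 and may share reads.

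The 4 lower genes of the list were Cd14, Lbp, Tlr2 and Nod1. Cd14, the coreceptor for lipopolysaccharide, was at 40.3, 18 and 26.1 FPKM against 807, 229 and 705 in liver and 348, 146 and 56.3 in lung (-4.20 ± 0.68 (SE) and -2.37 ± 0.68 (SE), adjusted p = 0.0122). Lbp, the serum protein that hands lipopolysaccharide to it, was at 11.4, 8.36 and 9.26 FPKM against 135, 173 and 123 in liver and 80.1, 85 and 41 in lung. Tlr2, the receptor for bacterial lipoproteins, was at 5.02, 5.34 and 3.89 FPKM, and Nod1, a cytosolic sensor of peptidoglycan, at 1.75, 3.44 and 1.84 FPKM. The highest intestine library lay below the lowest library of both other organs for each of these 4 genes, which describes genes picked by their call.

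Cell death genes were called higher in 10 of 23 (43.5%, beside 14.1% of all tested genes) and lower in 0. Of the 10 calls, 8 held under the 3 other scalings. The median difference of the list was 1.05 from the liver and 0.43 from the lung, and 0.27 and 0.84 after median-of-ratios scaling. Casp8, which starts apoptosis and restrains necroptosis, was at 118, 95 and 81.9 FPKM against 12.9, 13.5 and 9.21 in liver and 32.5, 26.4 and 23 in lung. Ripk3, the kinase of necroptosis, was at 79.6, 62.9 and 53.3 FPKM against 1.3, 0.872 and 1.21 in liver and 22.3, 10.5 and 7.74 in lung. Dfna5, the gasdermin E gene, was at 70.1, 29.8 and 73 FPKM against 0.697, 0.632 and 0.59 in liver and 0.906, 0.759 and 1.62 in lung. The intestine libraries did not overlap the others for any of these 3, which were named because they were called. Bcl2l15, a gut member of the BCL2 family, was at 301, 267 and 279 FPKM and listed at 0 in the liver.

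Enzymes that make reactive oxygen and nitrogen were also divided. Of 25 genes, 6 were called higher and 6 lower (24.0% each, beside 14.1% and 6.81% of all tested genes). Nos2, the inducible nitric oxide synthase, was at 108, 132 and 53.1 FPKM against 0.986, 0.06 and 0.45 in liver and 2.58, 1.25 and 2.38 in lung (5.99 ± 0.36 (SE) and 4.94 ± 0.36 (SE), adjusted p = 2.8e-06). Duox2, the hydrogen peroxide producing oxidase of mucosal surfaces, was at 102, 106 and 68.3 FPKM, and its maturation factor Duoxa2 at 199, 216 and 146 FPKM, against at most 1.78 FPKM elsewhere. Noxo1, the organizer of the epithelial NADPH oxidase, was at 24.3, 26.4 and 22.6 FPKM and Gpx2, the gut glutathione peroxidase, at 1568, 1336 and 1430.2 FPKM against 2.43, 0.267 and 0 in liver and 169, 86.3 and 38.1 in lung. Among the lower genes were Mt1 and Mt2, metallothioneins that bind zinc, with Mt2 at 746, 287 and 705 FPKM against 5214, 5501 and 6232 in liver and 5106, 3885 and 1163 in lung, and Gpx1, the widespread glutathione peroxidase, at 179.9, 155 and 150.4 FPKM against 784, 317 and 485 in liver and 549, 464 and 478 in lung. Sod1 and Sod2, the superoxide dismutases, were called lower but lost the call under median-of-ratios scaling.

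In a panel of 12 classical inflammatory genes, Nos2 was called higher, Lcn2 lower and the other 10 neither, a share near the 20.9% of all tested genes that were called in either direction. Hmox1 was also called lower without intestine library 1, after median-of-ratios scaling, after quantile normalization, with array weights and with a replicate block, and Il10 was called with array weights. Il6, a cytokine of the systemic response, was at 49.96, 1.16 and 46 FPKM in the intestine, at 6.28, 0.869 and 4.91 in liver and 104, 27.6 and 4.48 in lung. Cxcl2, a chemokine for neutrophils, was at 152, 4.05 and 46.7 FPKM in the intestine, at 30.4, 4.01 and 22.1 in liver and at 208, 79.4 and 10.01 in lung. Intestine library 2 lay far below its 2 partners for both, liver library 2 was also the lowest of its organ for both, and the ranges of the organs overlapped. Cxcl1, a related chemokine, was at 111, 8.93 and 83.7 FPKM and highest in the liver, at 362, 397 and 562. Il1b, a cytokine of myeloid cells, was at 93.9, 17.7 and 80.8 FPKM and Tnf, a cytokine of acute inflammation, at 6.31, 7.18 and 3.04 FPKM. Ccl2, a chemokine for monocytes, was at 168, 49.1 and 115 FPKM, with library 2 again the lowest, and Il10, which restrains inflammation, was at 2.82, 0.435 and 0.709 FPKM. S100a8, a calprotectin subunit of neutrophils, was at 518, 70.8 and 237 FPKM, near the liver at 178, 58 and 118 and far below the lung at 8986, 11322 and 15149. Hmox1, the heme oxygenase, was at 33.3, 6.68 and 10.5 FPKM against 34.6, 22.7 and 31 in liver and 218, 108 and 71.5 in lung.

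Cytokine genes of the mucosa were measured next to the panel. Il22, the lymphocyte cytokine that induces Reg3 genes, was at 2.28, 3.73 and 4.14 FPKM and listed at 0 in all 6 other libraries. It passed the filter only through its intestine values, so its call is a description. Without any 1 of the 3 intestine libraries its mean over the remaining libraries fell below the filter, and it was not tested. Il22ra1, the receptor chain on epithelium, was at 63.4, 24.4 and 52.5 FPKM against 8.97, 8.74 and 5.1 in liver and 1.51, 1.25 and 1.49 in lung, while Il17a, a related lymphocyte cytokine, was below the filter at 0.0869, 0 and 0.359 FPKM. Of 30 cytokine and receptor genes, 4 were called higher and 2 lower (4 lower without intestine library 1), shares of the order of the background. Of 23 chemokines, 5 were called higher, or 8 without lung library 1, and 1 lower, or 0 without intestine library 1 or lung library 3. With all libraries the shares were 21.7% and 4.35%, beside 14.1% and 6.81% of all tested genes. Ccl25, which draws lymphocytes to the small intestine, was at 132, 223 and 161 FPKM and Ccl28, which draws plasma cells to mucosa, at 25.7, 23.4 and 32.7 FPKM. Ccl11, the chemokine for eosinophils, was at 88.3, 38.6 and 73.1 FPKM. Each was at most 9.73 FPKM in any other library.

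**Figure D3:**
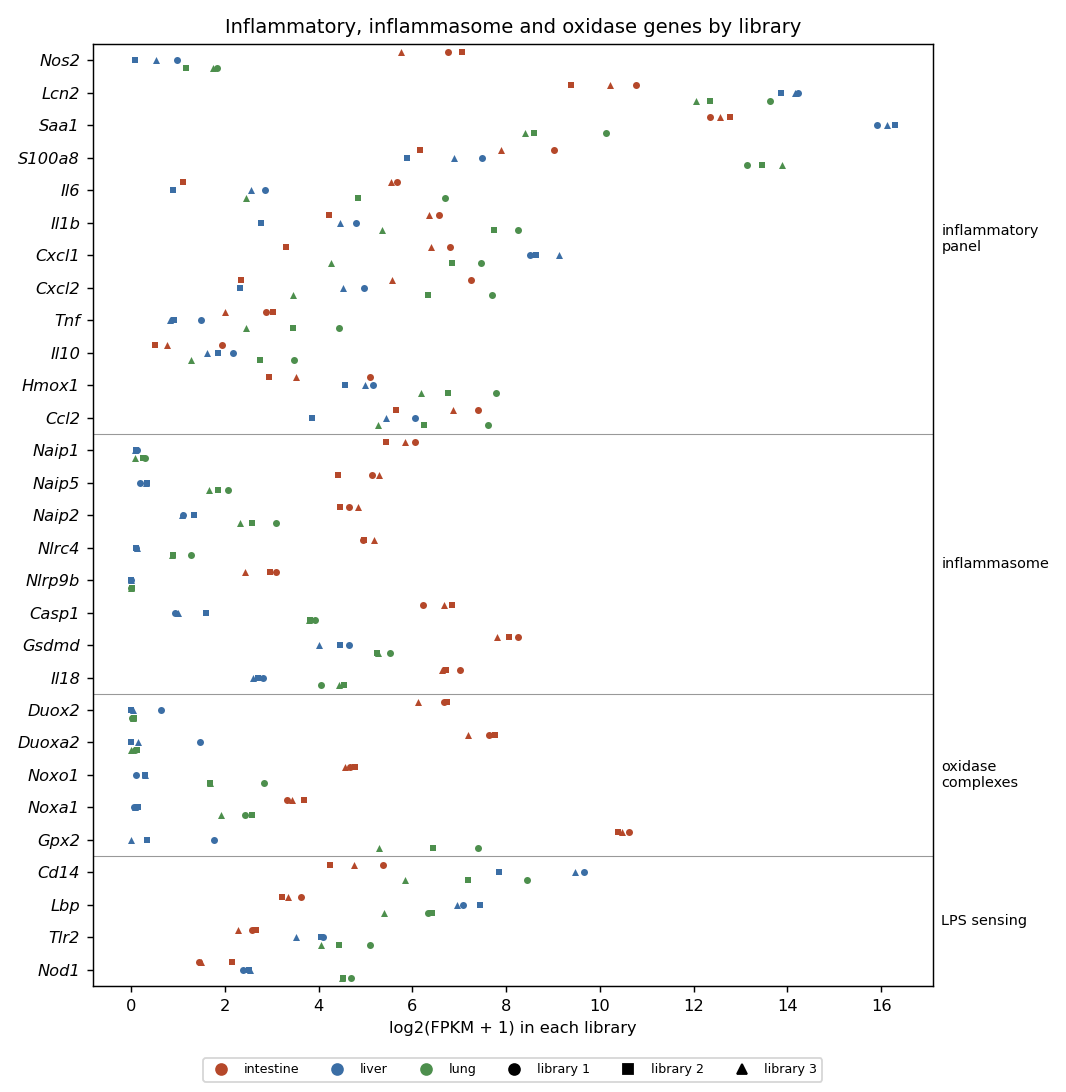
Log2(FPKM + 1) of inflammatory, inflammasome, oxidase and lipopolysaccharide-sensing genes in each of the 9 libraries (colour: organ; symbol: library number). Inflammasome and oxidase genes are highest in all 3 intestine libraries, Cd14, Lbp, Tlr2 and Nod1 are lowest there, and Il6, Cxcl1 and Cxcl2 are low in intestine library 2 alone of the 3.

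Acute-phase genes formed the main lower group. Of 26 genes, all tested, 16 were called lower and 0 higher, with a median difference of -7.35 from the liver and -2.10 from the lung, and 14 held under the other scalings. Hp, the haptoglobin that binds free hemoglobin, was at 172, 229 and 197 FPKM against 27491, 26210.0 and 26559 in liver and 3189.8, 1626 and 1876 in lung (-7.07 ± 0.23 (SE) and -3.42 ± 0.23 (SE), adjusted p = 1.4e-06). C3, the central complement protein, was at 41.3, 82.5 and 39.5 FPKM against 5007, 5445 and 4449 in liver and 511, 543 and 504 in lung. Itih4, a plasma inhibitor, was at 0.177, 0.144 and 0.061 FPKM against 6436, 4977 and 5564 in liver and 88.4, 22 and 27 in lung. Those not called included liver genes that the lung lacked as well, such as Crp, the C-reactive protein, at 0, 0.0458 and 0 FPKM in the intestine and 0.41, 0.234 and 0.05 in the lung. Socs3, the feedback inhibitor of STAT3, was at 156, 99.3 and 117 FPKM, between the liver at 74.6, 53.6 and 72.7 and the lung at 301, 281 and 69.4, with ranges that overlapped those of the lung. Over all genes, the call with the largest gap below both organs was Hc, complement C5, at 0.0479, 0.013 and 0.0165 FPKM against 79.2, 89.6 and 45.4 in liver and 57.6, 47.6 and 101 in lung. Next came Pon1, the paraoxonase that hydrolyses oxidized lipids, which was at 0.769, 0.157 and 0.199 FPKM.

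Metabolic genes differed by list. Of 20 oxidative phosphorylation genes, 16 were called higher as deposited, but 2, Cox5a of complex IV and Atp5o of ATP synthase, held under all 3 other scalings. Atp5b, the beta subunit of ATP synthase, was at 764, 803 and 785 FPKM against 411, 360.0 and 375 in liver and 394, 366 and 398 in lung, a difference of 1.04 ± 0.10 (SE) and 1.02 ± 0.10 (SE) that was lost under another scaling. The median difference of the list was 0.75 from the liver and 0.52 from the lung, beside 0.65 and -0.45 over all tested genes. Of 22 ribosomal protein genes 0 were called, and they lay above the liver and below the lung like the median gene (0.89 and -0.29). Of 24 glycolysis and hypoxia genes, 4 were called higher (16.7%) and 1 lower, near the background. Hk2, a hexokinase and one of the 4, was at 118, 94.5 and 84.1 FPKM against 0.562, 0.43 and 0.733 in liver and 16.3, 13.1 and 8.09 in lung. Hsd11b2, which inactivates glucocorticoids, was at 18.8, 23.6 and 18.9 FPKM against 0 in liver and 6.43, 1.36 and 0.452 in lung, and Hsd11b1, which activates them, was at 12.5, 13.5 and 13.1 FPKM against 164, 60.3 and 104 in liver and 126, 234 and 256 in lung, so the pair was called in opposite directions (adjusted p = 0.00066 and 0.0001). Of 29 drug metabolism and efflux genes, 13 were called higher and 4 lower, and 10 and 4 of these held under the 3 other scalings. Abcg2, the xenobiotic exporter, was at 174, 113 and 144 FPKM against 17.9, 17 and 15.6 in liver and 7.37, 12.1 and 10.9 in lung, and Ces2e, a carboxylesterase, at 359, 336 and 343 FPKM. Cyp2f2, a cytochrome P450 of club cells and liver, was at 0, 0.0846 and 0.0537 FPKM against 45.3, 28.7 and 25.4 in liver and 860.2, 1281 and 1689.9 in lung.

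Interferon and antigen presentation genes were called at or below the background share. Of 30 interferon genes, 3 were called higher and 2 lower, and of 19 antigen presentation genes, 1 and 1 (0 lower without intestine library 1). The member called higher was H2-T3, the thymus leukemia antigen that binds CD8 on intraepithelial lymphocytes, at 20.1, 38.1 and 36.1 FPKM and at most 0.113 FPKM elsewhere. Oas1a, an antiviral synthetase, was at 21.3, 32.7 and 36.5 FPKM against 4.84, 2.27 and 2.32 in liver and 24.1, 10.6 and 13 in lung (adjusted p = 0.0384), and its lowest intestine library lay under the highest lung library. The call was lost without intestine library 2 or 3 or lung library 2 or 3, with a difference from the mean of both organs of 1.78 to 1.88. A pseudocount of 0.1 and leaving out the filter also lost the Oas1a call. The count of higher interferon genes was 1 without intestine library 3, lung library 2 or lung library 3, and 5 without lung library 1.

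**Figure D4:**
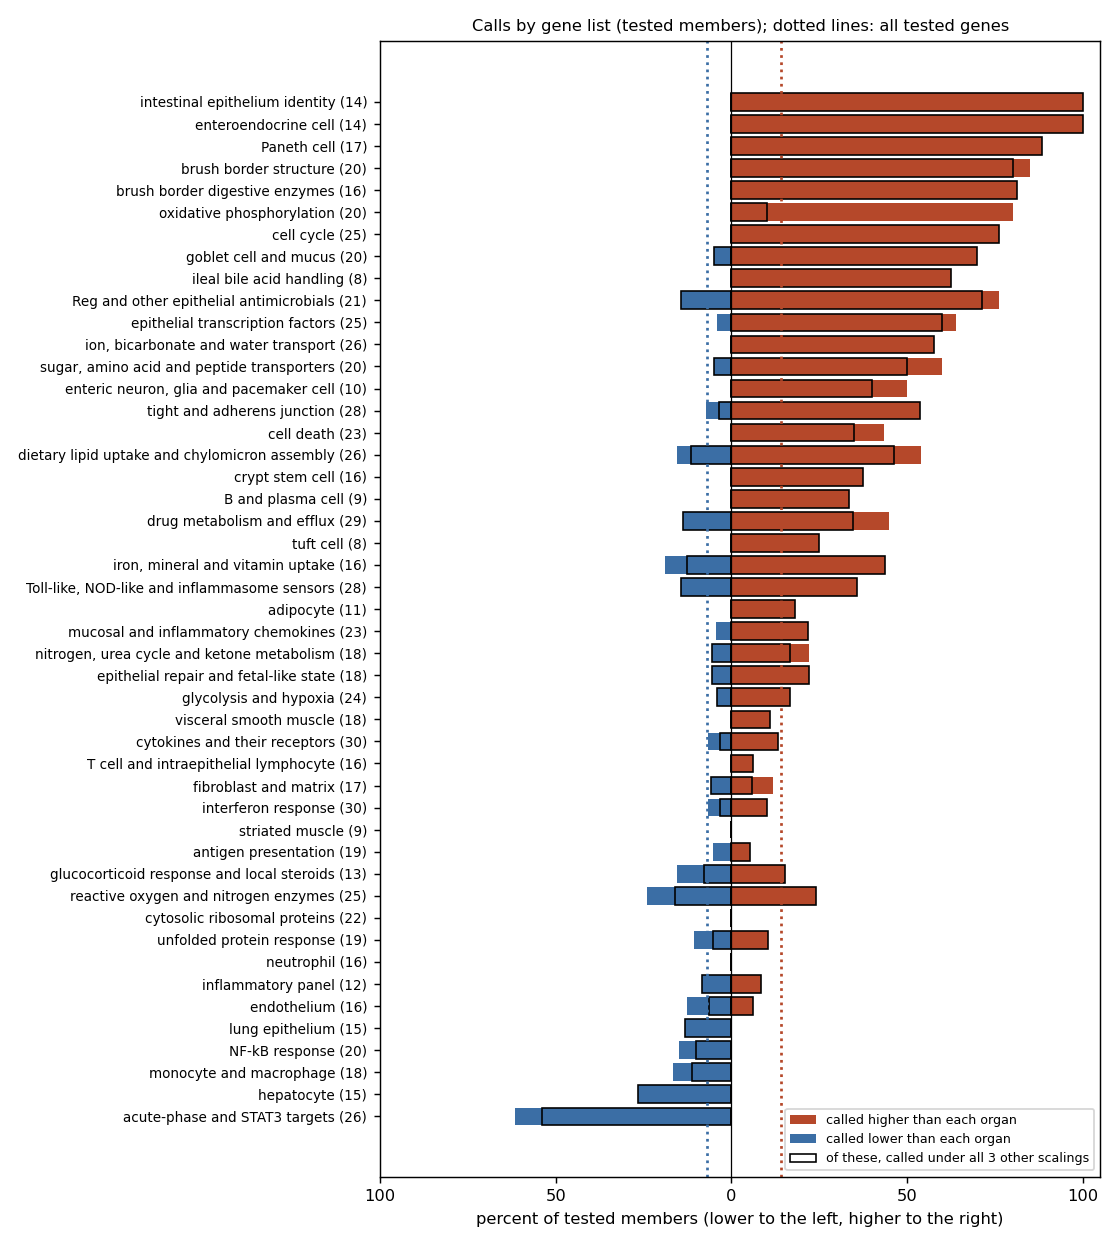
Percent of tested members called higher (right) or lower (left) than each other organ, for gene lists with at least 8 tested members (number in brackets). Black outlines are calls that held under the 3 other scalings, and dotted lines are the 14.1% and 6.81% of all tested genes. Epithelial lists lead on the right, acute-phase genes lead on the left, and the outline of oxidative phosphorylation is far shorter than its bar.

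Markers of other cells and organs were measured beside these results. Of 16 neutrophil genes 0 were called in either direction, and they lay near the liver and below the lung (median 0.90 and -4.37), and their summed level was between 146 and 1168 FPKM in intestine, between 130 and 357 in liver and between 20029 and 30233 in lung. Of 18 macrophage genes, 0 were called higher and 3, Cd14, Marco and Timd4, lower (16.7%, beside 6.81% of all tested genes). Timd4, a receptor of tissue macrophages, lost its call under quantile normalization and without any 1 of 6 libraries, with a difference from the mean of both organs of -1.23 to -1.06. Its call was also lost with no filter, with a pseudocount of 5 and with a replicate block. Jchain, the joining chain of secreted IgA, was at 54, 142 and 102 FPKM and at most 1.95 FPKM elsewhere, and 3 of 9 tested B and plasma cell genes were called higher, or 5 without intestine library 1. Actg2, the actin of visceral smooth muscle, was at 19.3, 81.9 and 27.4 FPKM against 0.067, 0 and 0.073 in liver and 7.56, 8.68 and 8.98 in lung, and Acta2, a smooth muscle actin, and Actg2 were the 2 called among 18 smooth muscle genes, the call of Acta2 being lost without lung library 1 or 2 (difference from the mean of both organs 3.26 and 3.29). A pseudocount of 0.1 also lost the Acta2 call. Adipoq, a hormone of fat cells, was at 20.8, 17.5 and 14.5 FPKM against 0.073 or less in liver and 2.04, 2.58 and 19.6 in lung. Of 11 adipocyte genes, 2 were called higher (18.2%, near the 14.1% of all tested genes). The call of Adipoq was lost without any 1 of 8 libraries, lung library 3 being the exception, and its difference from the mean of both organs was then 2.64 to 3.01. Leaving out the filter also lost the Adipoq call. Hepatocyte genes summed to 103 to 156 FPKM in the intestine, most of it Tat, a tyrosine-degrading enzyme, at 116, 102 and 74.3 FPKM, while Alb, the defining albumin, was at 0.684, 0.669 and 0.33 FPKM. Surfactant gene Sftpc of the lung was at 0.562, 0 and 0 FPKM, and the 15 pancreas genes together summed to at most 0.621 FPKM in any intestine library. The part of the other cell types in the results above was not tested.

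The 3 intestine libraries differed among themselves in groups of genes that moved together. Over all 13238 tested genes, library 1 was the lowest of the 3 in 4683 and the highest in 4756, library 2 in 4958 and 4832, and library 3 in 3261 and 3454. Library 2 was the lowest in 19 of 20 brush border structure genes, 15 of 16 digestive enzymes, 13 of 16 neutrophil genes and 9 of 12 genes of the inflammatory panel. It was the highest in 19 of 19 antigen presentation genes, 18 of 18 smooth muscle genes, 9 of 9 B and plasma cell genes and 16 of 25 cell cycle genes. Actg2 illustrates the smooth muscle genes, at 81.9 FPKM in library 2 and 19.3 and 27.4 in the others. Cd74, the chaperone of MHC class II, was at 104, 196 and 134 FPKM. Library 1 was the highest in 19 of 20 brush border structure genes and 14 of 16 neutrophil genes, and the lowest in 14 of 18 smooth muscle genes and 9 of 9 B and plasma cell genes. Cd79a, a chain of the B cell receptor, was at 1.2, 13.5 and 12.9 FPKM, with libraries 2 and 3 alike and library 1 far lower. Library 1 was also the lowest in 15 of 17 Paneth genes, such as Defa22, an alpha-defensin, at 3334, 7675 and 8653 FPKM. Genes of 1 cell type in 1 library share their source, so these counts describe the libraries and carry no test, and the share of muscle, lymphoid tissue and epithelium in each piece was not tested. Without library 2, 1773 genes were called higher and 821 lower, and 15 of 25 cell cycle, 12 of 20 oxidative phosphorylation, 14 of 21 antimicrobial and 14 of 26 acute-phase genes were called in the direction given above.

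**Figure D5:**
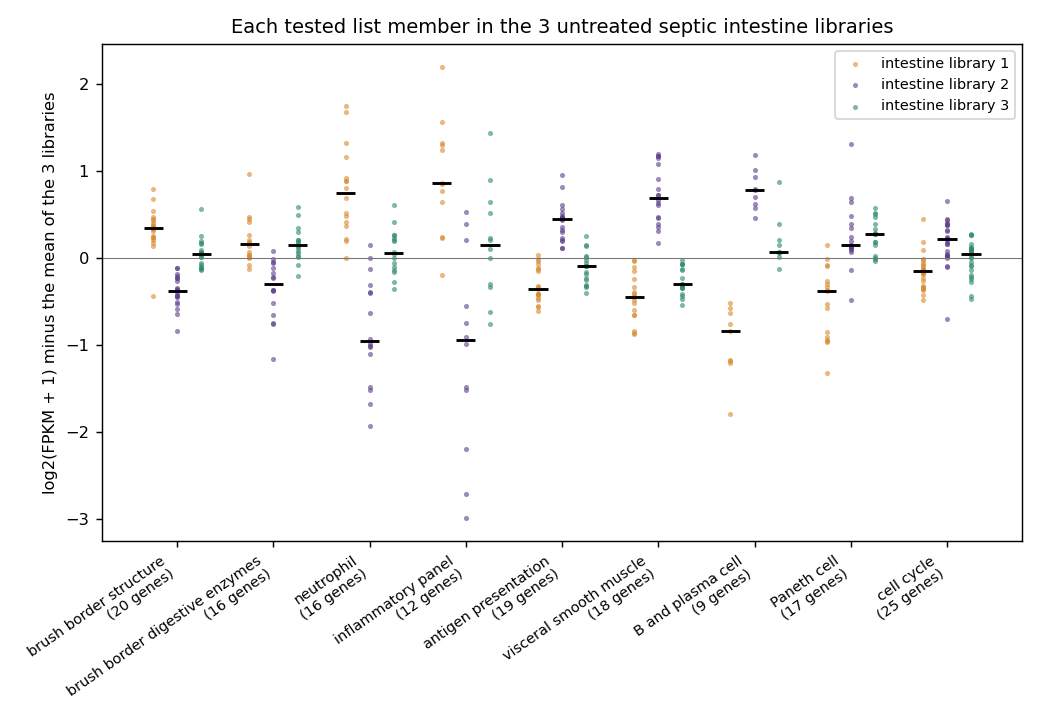
Log2(FPKM + 1) of each tested list member in the 3 intestine libraries, minus the mean of the 3, with the median of the list as a black bar. Library 2 lies below the others for brush border, neutrophil and inflammatory panel genes and above them for antigen presentation, smooth muscle and B cell genes, and library 1 lies lowest for Paneth genes.

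The genes with the widest range over the 3 intestine libraries, of those with a mean of at least 10 FPKM, were 9 small RNA genes and Defa4, an alpha-defensin. Defa4 was at 322, 0 and 0 FPKM, present in library 1 alone. The FPKM of very short RNAs is unreliable in libraries made from longer fragments, and these genes are not described further.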

How the data were processed

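Polyadenylated RNA of mouse liver, intestine and lung was sequenced, and the 9 libraries without hydrogen are used here. The deposited values are FPKM per gene symbol, 1 library per column, which the authors made on mm10 using Cufflinks 2.2.1, TopHat2 2.0.13, SAMtools 0.1.19 and Bowtie2 2.2.3, per the submitters' processing notes, which give no roles or options. Neither the annotation nor any scaling across libraries was given in the sources used here. The 9 hydrogen libraries were not used, nor was a second column in 1 lung file, whose values are those of lung library 3. Each library listed 24346 symbols, of which 5184 were at 0 in all 9. FPKM is not a count, and the depth given is an estimate from the spacing of low values.

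Genes whose mean over the 9 libraries reached 1 FPKM were tested on log2(FPKM + 1), which understates differences of low genes, with limma 3.58.1 in R 4.3.3 (trended empirical Bayes, 1 fit over the 3 organs), with Benjamini-Hochberg adjustment. The adjusted p printed for a gene is the largest of the 3 contrasts. The members and lists were chosen with earlier results of these data known. Genes were named by this rule: the 30 highest and 15 lowest calls, up to 8 called members of a list and up to 4 called the other way, the inflammatory panel, the 10 most variable intestine genes, and members of marker and region lists. Named outside it, after their values were seen, were Nr0b2, Tmprss15, Sod1, Cd74, Crp, Socs3, Pcna, Mcm3, Mcm4, Mcm5, Mcm6 and Mcm7. The test was checked on simulated data in which most genes had equal means in the 3 organs. The organs differ broadly in the real data, so that check cannot vouch for the calls made here. Alternatives covered the scaling, pseudocount, filter, weights, trend, call rule, replicate block, small RNA genes and each library left out. A symbol with no sequence in the RefSeq table is named only. Results of some genes are not reported here.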

Additional observations from a re-analysis of the deposited data

How the results depend on the processing

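Of 153 tested genes named in the text, 124 were called, and 111 of these kept their call and were tested under every alternative. Under at least 1 alternative, 5 fell below the filter and 10 lost the call, Gata4 and Timd4 doing both, and 0 changed direction under any. The 1860 higher and 902 lower calls became 2981 and 1914 when direction alone was required against each organ, and 1170 and 441 when a log2 difference over 1 was required. Quantile normalization gave 1953 higher and 1509 lower calls. Leaving out 1 library at a time gave 1582 to 1896 higher and 751 to 898 lower calls. With a replicate block, 1829 genes were called higher and 887 lower. Whether libraries of the same number share a mouse is not known, and the main fit does not pair them. Deviations of same-numbered libraries correlated at -0.18 to 0.21 over genes, and those of different-numbered libraries at -0.24 to 0.27. Between intestine and liver, same-numbered pairs were at 0.18, 0.21 and 0.10 and different-numbered pairs at -0.17 to 0.0006. Pairs with the lung did not follow the numbers, with lung library 3 at 0.24 with intestine library 2 and 0.27 with liver library 2. Of the named genes, Timd4 lost its call with the block and Hmox1 gained one. The cause of these changes was not tested. With 3 libraries per organ and no counts, values of a few hundredths FPKM are near the level of 1 fragment and carry no order.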
